A study of Mus musculus with 6 samples.

Results

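The genes described here are the transforming growth factor beta (TGF-beta) and bone morphogenetic protein (BMP) pathway genes of the mouse lung, 69 protein-coding genes among the 23194 genes of the deposited table. They were taken by symbol alone: the TGF-beta, BMP, GDF and inhibin or activin ligands, their receptors and the coreceptor endoglin, the SMAD and SMURF genes, the latent TGF-beta binding proteins, secreted antagonists with the follistatin family, the Id genes and Tmem100. RNA came from the whole left lung of wild-type adult C57BL/6 mice. For the 3 injured lungs, ligation of the left pulmonary artery lasted 4 h and was followed by 24 h of reperfusion, a model of warm lung ischemia and reperfusion. The other 3 lungs came from naive mice. Since each mouse has a single left lung, a group stands for 3 animals, and p-values weigh the difference between groups against the spread between animals. The labels do not describe a sham operation in the naive mice, so the effects of the operation and of ischemia cannot be told apart.

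TGF-beta and BMP ligands bind paired type I and type II receptors, which phosphorylate SMAD proteins that carry the signal to the nucleus with SMAD4. TGF-beta is stored in the matrix in a latent form bound to LTBP proteins, while BMP ligands are held back by secreted antagonists such as noggin, chordin and gremlin. In lung endothelium, BMP9 and BMP10 signal through the type I receptor ALK1 (Acvrl1), the type II receptor BMPR2 and endoglin to SMAD1, SMAD5 and SMAD9, and human mutations in these receptor genes cause pulmonary arterial hypertension or hereditary haemorrhagic telangiectasia. Id genes, Smad6 and Smad7 are classical transcriptional targets of this signal, and Tmem100 is a target of ALK1 signalling in endothelium.

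Total gene counts ran from 20062818 to 23638078 in injured lungs and from 18913487 to 34986276 in naive lungs. All libraries held markers of alveolar epithelium, airway, endothelium and fibroblasts. The summed level of 12 neutrophil markers ran from 801 to 1441 counts scaled to library size (CPM, here on the TMM scale of edgeR) in injured lungs and from 71.7 to 102 CPM in naive lungs, and 8 of them were called higher. On the second principal component, which held 23.7% of the variance, injured replicate 3 lay at -35.4 and naive replicate 3 at -17.1, while the other lungs lay between -3.63 and 25.2. Values without both of these lungs are therefore given where they change a result.

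The comparison asked which of these genes differ in transcript level after warm ischemia and reperfusion. A filter on low counts left 60 of the 69 genes for the test, and 2 of the 60 (3.33%) were called changed at an adjusted p under 0.05 by edgeR, against 3.11% of all 15486 genes tested. Both were lower in injured lungs: Tmem100, a transmembrane protein of endothelial cells, and Chrdl1, a secreted BMP antagonist. None was called higher, against a background of 2.16% of all genes, and the 2 called lower stood against 0.956%. DESeq2 and limma-voom also called 0 higher, where they called 3.61% and 1.91% of all genes higher. At an unadjusted p under 0.05 there were 4 higher and 13 lower (6.67% and 21.7%, against 9.06% and 7.66% of all genes, or 16.7% in both directions). The number called lower was 0 without naive replicate 2, 4 by DESeq2, 4 with no filter on low counts and 5 without both replicate 3 lungs. Of all genes, 0.317%, 2.49%, 1.16% and 1.62% were called lower in these settings, in the same order. Without injured replicate 2 or without naive replicate 1, which are also used below, 0.558% and 0.834% of all genes were called lower. The authors' deposited table lists 4 of these genes as lower and 0 as higher at an adjusted p under 0.05, where it lists 6.15% of all genes with an adjusted p in either direction. With all lungs, the share called in either direction was close to the background, while by direction the lower share lay above its background and the higher share below.

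Most fitted changes were small. The log2 fold change was under 0.5 in size for 48 of the 60 tested genes and reached 1 in size for 5. Among the 44 tested genes whose mean reached 10 CPM, 40 had a 95% interval of the log2 fold change that lay wholly between -1 and 1. The exceptions were Chrdl1, Gdf10, Smad9 and Fst. Fitted values below 0 numbered 45 of 60 (75.0%), against 50.2% of all genes tested, and the median log2 fold change was -0.15, against -0.00096 over all genes tested. The 6 libraries did not overlap between groups for 10 genes with lower values in injured lungs (16.7%, against a background of 10.6%) and for 4 with higher values (6.67%, against a background of 12.3%).

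**Figure D1:**
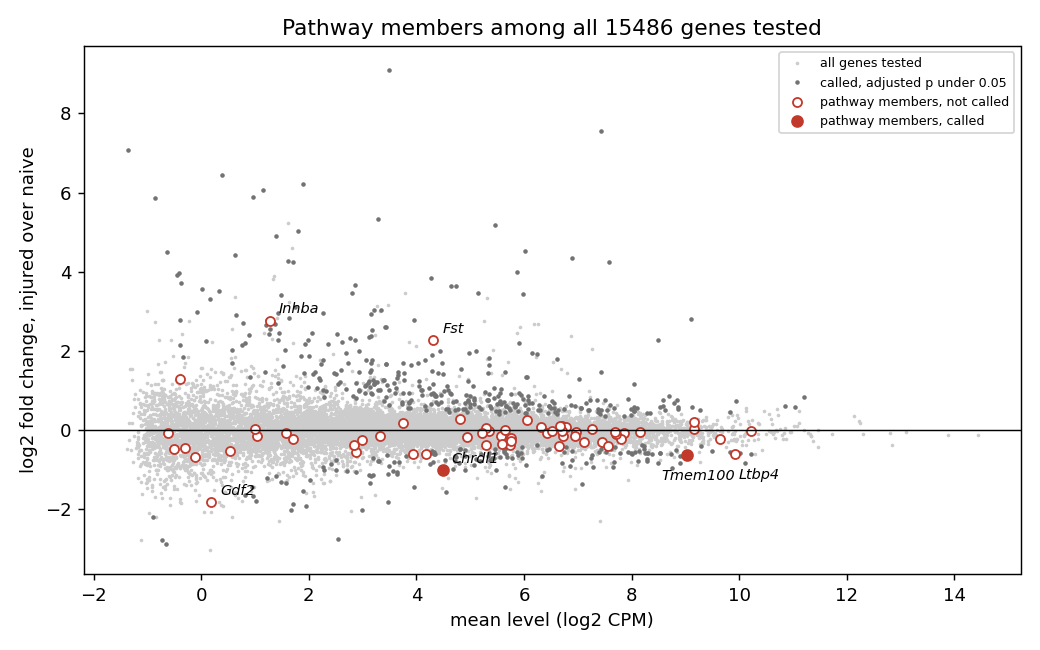
Log2 fold change of injured over naive lungs (vertical axis) against mean level in log2 CPM (horizontal axis) for all 15486 genes tested, with called genes in dark grey and the 60 tested pathway genes as red circles. Tmem100 and Chrdl1 are the filled circles, and most open circles lie within 0.5 of the zero line.

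The 9 genes not tested were Bmp8a, Bmp8b, Bmp15, Gdf3, Gdf5, Gdf7, Acvr1c, Chrdl2 and Fstl5, with 1 to 68 counts summed over the 6 libraries. Per gene length, the pathway in these lungs was led by genes of the endothelial BMP axis. Over the 6 lungs Tmem100 averaged 294 FPKM (fragments scaled by gene length and library size), followed by Acvrl1 at 219.9 FPKM, Ltbp4 at 179 FPKM, Eng at 159 FPKM, Id3 at 119.9 FPKM and Tgfbr2 at 119 FPKM. Smad6, Bmpr2, Id1 and Bmp6 followed at 95.2, 92.3, 86.5 and 86.1 FPKM. A mean of 50 FPKM or more was reached by 13 of the 69 genes, and 19 lay under 1 FPKM. Tmem100 was the most abundant of the genes in both groups, at 233 ± 30.7 FPKM in injured and 356 ± 8.87 FPKM in naive lungs (SD, n = 3 each). In injured lungs it lay within the spread of Acvrl1 at 203 ± 35.8 FPKM, whereas in naive lungs it stood well above Acvrl1 at 236 ± 5.73 FPKM (SD, n = 3 each).

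**Figure D2:**
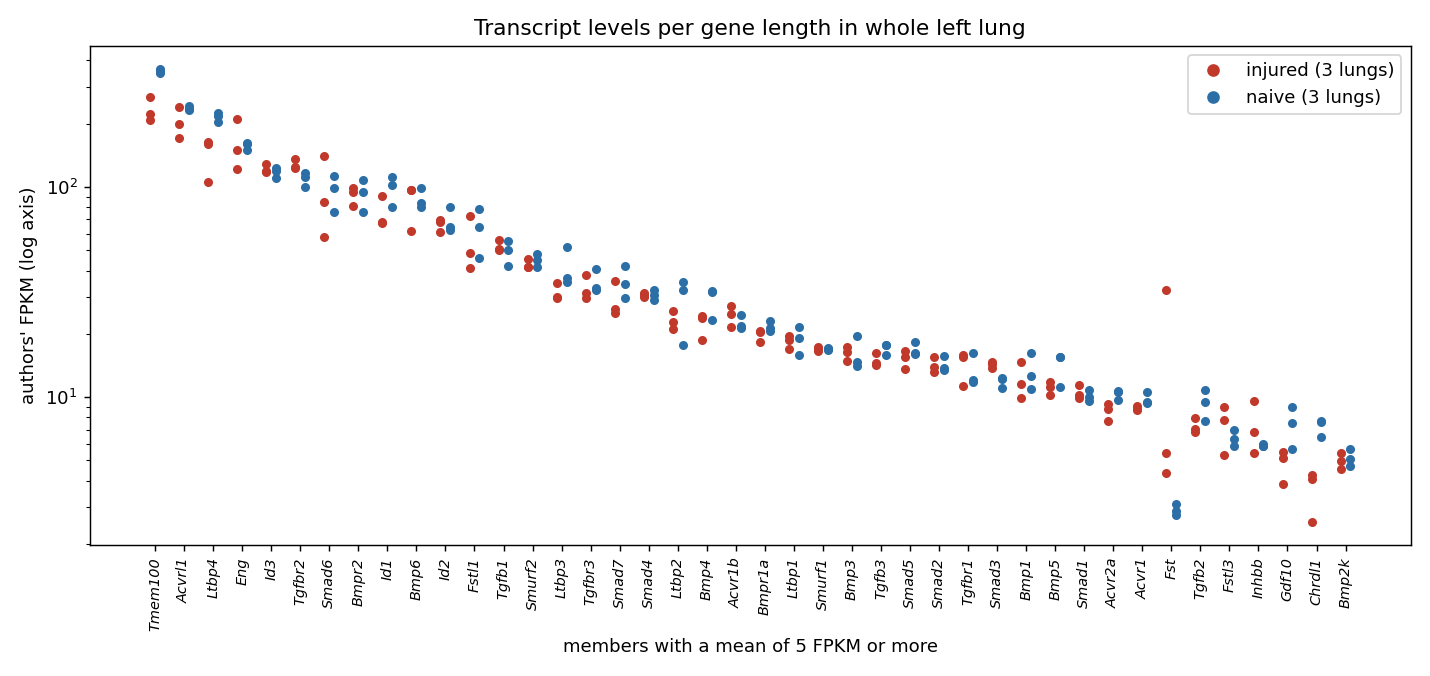
The authors' FPKM values on a log axis for 42 of the 43 pathway genes with a mean of 5 FPKM or more, ordered by mean level, with the 3 injured lungs in red left of the 3 naive lungs in blue. Tmem100 and Ltbp4 separate by group at the high end and Chrdl1 at the low end, and 1 injured lung stands far above the others for Fst.

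Tmem100 (ENSMUSG00000069763, chromosome 11, 90030348 to 90036508 in mm10) stood at 470.0, 391 and 367 CPM in injured lungs, against 612, 627 and 662 CPM in naive lungs. Every injured lung was below every naive lung, with a narrow spread among the naive lungs. The mean was 409 ± 53.8 CPM in injured and 633 ± 25.6 CPM in naive lungs (SD, n = 3 each), a log2 fold change of -0.63 ± 0.11 (SE; edgeR adjusted p = 0.0161). The summed level of 15 endothelial markers ran from 5323 to 6533 CPM in injured lungs and from 6249 to 6780 CPM in naive lungs, and 0 of the 15 were called. Among capillary subtypes, 7 aerocyte markers summed to 1412 to 1474 CPM in injured lungs, against 1552 to 1797 CPM in naive lungs, without overlap, and 7 general capillary markers to 3206 to 3334 CPM in injured lungs, against 3116 to 3310 CPM in naive lungs. In both lists 0 were called, and the part of aerocytes in the fall of Tmem100 was not tested. The general capillary markers did not move together. Aplnr had a log2 fold change of -1.19 ± 0.37 and Cxcl12 one of 0.72 ± 0.34 (edgeR adjusted p = 0.200 and 0.373). Tmem100 made up 7.19%, 6.18% and 6.90% of the sum of the 15 endothelial markers in injured lungs, against 9.58%, 10.04% and 9.76% in naive lungs, so the groups did not overlap after this scaling either (exact two-sided permutation p = 0.1, the smallest possible with 3 against 3). In whole lung, fewer cells of a type and less RNA per cell cannot be told apart. The call was lost without injured replicate 2 (adjusted p = 0.0603) or without naive replicate 2 (adjusted p = 0.0693).

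The Id genes, inhibitors of basic helix-loop-helix transcription factors and the best known direct readouts of BMP signalling, gave no call. Id1 had 104, 78.9 and 77.9 CPM in injured lungs, against 117, 93.4 and 132 CPM in naive lungs. The groups overlapped through injured replicate 1 and naive replicate 2, and the log2 fold change was -0.39 ± 0.15 (edgeR adjusted p = 0.241). Id3, the most abundant Id gene, lay at 164, 151 and 151 CPM in injured lungs, against 140.3, 158 and 156 CPM in naive lungs. The groups overlapped, and the 95% interval of the log2 fold change ran from -0.16 to 0.23. Id2 had a log2 fold change of -0.07 ± 0.11, and Id4, the least abundant, one of -0.55 ± 0.23 (edgeR adjusted p = 0.261). Among these 5 target genes, then, Tmem100 passed the test and the others did not, but a difference between Tmem100 and the Id genes was not itself tested. At an unadjusted edgeR p under 0.05, 3 of the 5, Tmem100, Id1 and Id4, were lower and 0 higher. The lower share was 60%, against 7.66% of all genes.

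The promoter windows of Id2, Id3 and Id4 are shown because these genes are read as transcriptional outputs of the pathway. RefSeq windows were matched by symbol for 48 of the 69 genes, and Tmem100, Chrdl1 and Id1 are among the unmatched. Each window holds 300 bases, 250 before to 50 after a RefSeq start, in build GRCm38.p6, 5′ to 3′ on the gene's strand. Capitals mark GGCGCC, the core of a GC-rich site of BMP-activated SMADs, which is its own reverse complement, and CAGAC or its reverse complement GTCTG, a SMAD-binding element. The 2 motifs did not overlap in these windows. The RefSeq start of the window lies 0, 325 and 311 bases from the start of the deposited gene for Id2, Id3 and Id4.
Id2 (chr12:25096043-25096342, minus strand): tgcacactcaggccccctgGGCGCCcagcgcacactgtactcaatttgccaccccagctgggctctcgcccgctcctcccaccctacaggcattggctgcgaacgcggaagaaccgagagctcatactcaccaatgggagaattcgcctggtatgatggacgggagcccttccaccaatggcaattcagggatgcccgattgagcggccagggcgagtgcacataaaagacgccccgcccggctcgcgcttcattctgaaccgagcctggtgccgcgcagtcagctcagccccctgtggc
Id3 (chr4:136143572-136143871, plus strand): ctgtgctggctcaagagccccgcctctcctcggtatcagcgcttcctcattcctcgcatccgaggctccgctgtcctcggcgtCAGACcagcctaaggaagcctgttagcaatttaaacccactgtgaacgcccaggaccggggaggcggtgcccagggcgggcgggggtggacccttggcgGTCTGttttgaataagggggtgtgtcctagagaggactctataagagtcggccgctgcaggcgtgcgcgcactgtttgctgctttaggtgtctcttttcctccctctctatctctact
Id4 (chr13:48260866-48261165, plus strand): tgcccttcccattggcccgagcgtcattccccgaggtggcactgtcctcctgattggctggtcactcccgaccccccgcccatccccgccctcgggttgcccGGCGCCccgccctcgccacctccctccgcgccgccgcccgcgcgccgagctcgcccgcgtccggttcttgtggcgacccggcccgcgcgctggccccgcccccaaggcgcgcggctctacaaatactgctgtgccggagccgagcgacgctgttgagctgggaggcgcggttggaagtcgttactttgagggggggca
The Id2 and Id4 windows hold 1 GGCGCC each, beginning 231 and 148 bases before the start, and the Id3 window holds 2 copies of the shorter element, beginning 167 and 68 bases before it. Of all 32851 windows of this length, 11.9% hold GGCGCC and 49.6% hold CAGAC or GTCTG. A match describes the letters of these windows only.

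Receptors of the endothelial BMP axis kept overlapping groups. Acvrl1, the ALK1 receptor, had 874, 719 and 618 CPM in injured lungs, against 852, 842 and 904 CPM in naive lungs. Injured replicate 1 lay inside the naive range and the other injured lungs below it, with a log2 fold change of -0.23 ± 0.13 (edgeR adjusted p = 0.410). Eng, which encodes the coreceptor endoglin, had 748, 535 and 435 CPM in injured lungs, against 533, 581 and 588 CPM in naive lungs, so the injured lungs lay on both sides of the naive ones. The type II receptor gene Bmpr2 had a log2 fold change of -0.03 ± 0.13 with a 95% interval from -0.34 to 0.27. Smad6, an inhibitory SMAD induced by BMP signalling, had 417, 250.3 and 171 CPM in injured lungs, against 293, 225 and 343 CPM in naive lungs. Its 95% interval, -0.93 to 0.85, leaves room for changes of either sign. Smad7, the other inhibitory SMAD, had 151, 112 and 106.8 CPM in injured lungs, against 126, 147 and 185 CPM in naive lungs (log2 fold change -0.31 ± 0.17, edgeR adjusted p = 0.432).

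The injured lungs differed among themselves more than the naive lungs did for Tmem100, Acvrl1, Eng and Smad6. In all 4 genes, and in Smad7, Id1 and Id3, injured replicate 1 was the highest and injured replicate 3 the lowest of the 3 injured lungs. Relative to the naive mean, Smad6 stood at 0.54, -0.20 and -0.75 log2 units in injured replicates 1, 2 and 3, and Eng at 0.40, -0.09 and -0.38. The summed endothelial markers had the same order with a smaller range, at 0.01, -0.03 and -0.28 log2 units. The part of endothelial RNA content in this spread was not tested.

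**Figure D3:**
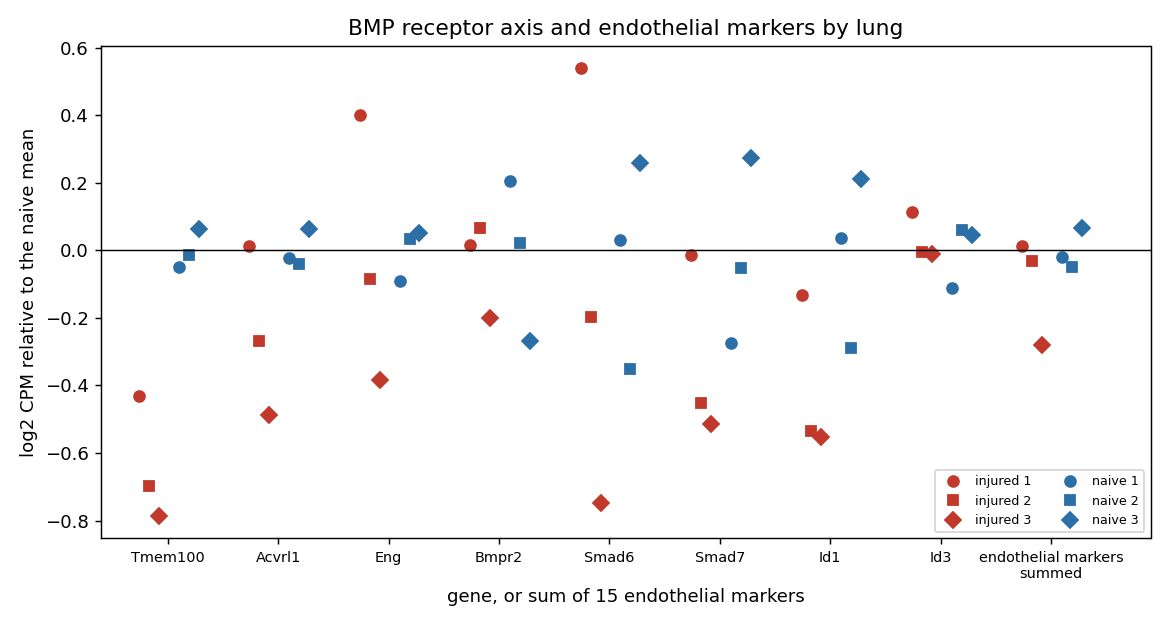
Log2 CPM of 8 genes of the BMP receptor axis and of the sum of 15 endothelial markers relative to the mean of the naive lungs, 1 point per lung, injured lungs in red left of naive lungs in blue. All 3 injured lungs lie below all naive lungs for Tmem100 only, and injured replicate 3 is the lowest injured lung for each item shown.

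Among the other receptors, Tgfbr2, the type II receptor of TGF-beta, had 595, 587 and 646 CPM in injured lungs, against 556, 536 and 488 CPM in naive lungs. The groups did not overlap, but the difference was small (log2 fold change 0.21 ± 0.09) and was not called (edgeR adjusted p = 0.297). Its partner Tgfbr1 had a log2 fold change of 0.07 ± 0.17 and the coreceptor gene Tgfbr3, betaglycan, one of -0.11 ± 0.12. Acvr2a, an activin and BMP type II receptor, had 43.7, 52.4 and 49.6 CPM in injured lungs, against 60.1, 59.8 and 56.6 CPM in naive lungs, again without overlap and without a call (log2 fold change -0.28 ± 0.09, edgeR adjusted p = 0.173). The BMP type I receptor genes Bmpr1a and Acvr1 also had non-overlapping lower values in injured lungs, with log2 fold changes of -0.14 ± 0.09 and -0.17 ± 0.10 and edgeR adjusted p of 0.461 and 0.453. Over all 12 receptor and coreceptor genes tested, 0 were called by edgeR, DESeq2 or limma-voom, which called 3.11%, 6.1% and 2.76% of all genes. With edgeR, 1 in each direction had an unadjusted p under 0.05 (8.33%, against 9.06% of all genes higher and 7.66% lower). Groups did not overlap for 3 with lower values (25%, against 10.6% of all genes) and 1 with higher values (8.33%, against 12.3%). The log2 fold changes ran from -0.38 for Acvr2b to 0.21 for Tgfbr2.

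The secreted antagonist Chrdl1, chordin-like 1, which binds BMP4 and related ligands, had the largest called change of the set. Chrdl1 (ENSMUSG00000031283, chromosome X, 143285674 to 143394262 in mm10) had 17.3, 16.6 and 10.4 CPM in injured lungs, against 31.5, 31.3 and 27.1 CPM in naive lungs. All injured lungs lay below all naive lungs. The mean was 14.8 ± 3.80 CPM in injured and 30.0 ± 2.48 CPM in naive lungs (SD, n = 3 each), a log2 fold change of -1.02 ± 0.18 (edgeR adjusted p = 0.0198). The summed level of 14 fibroblast markers, 3 of which were called lower, ran from 4445 to 6671 CPM in injured lungs and from 4356 to 8621 CPM in naive lungs. That of 13 smooth muscle and pericyte markers ran from 1349 to 1689 CPM in injured lungs, against 1787 to 2140 CPM in naive lungs, with 2 called lower. Postn, 1 of these 2, had 310, 266 and 303 CPM in injured lungs, against 485, 563 and 667 CPM in naive lungs. Without Postn, the sums of this list overlap between groups. Chrdl1 made up 0.374%, 0.374% and 0.156% of the fibroblast sum in injured lungs, against 0.722%, 0.560% and 0.314% in naive lungs. After this scaling the groups overlapped through naive replicate 3 (exact two-sided permutation p = 0.3, with 0.1 the smallest possible). That lung had the highest fibroblast sum, at 8621 CPM. The markers in the sum did not move together: Col3a1 had 553, 1093 and 2025 CPM in naive replicates 1, 2 and 3, and Dcn 205, 238 and 205 CPM. The part of fibroblast content in the fall of Chrdl1 was not tested. The call was lost without naive replicate 1 (adjusted p = 0.0590) or without naive replicate 2 (adjusted p = 0.0843).

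The other antagonists gave no call. Grem1, Nog and Chrd were scarce, at 0.20, 0.33 and 0.72 FPKM, and Fstl1, a secreted follistatin-like glycoprotein, had a log2 fold change of -0.24 ± 0.28.

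Follistatin and the activin subunit that it neutralises were high in the same injured lung. Fst (chromosome 13, 114452262 to 114458730) had 12.7, 10.1 and 75.4 CPM in injured lungs, against 7.16, 6.40 and 6.88 CPM in naive lungs. All injured lungs lay above all naive lungs, but injured replicate 3 was far above the others, and the log2 fold change of 2.27 ± 0.95 was not called (edgeR adjusted p = 0.344). Without injured replicate 3 the log2 fold change was 0.74 (adjusted p = 0.0666). Inhba, the beta A subunit of activin A (chromosome 13, 16011851 to 16027211), had 34, 18 and 234 counts in injured lungs, against 23, 16 and 9 counts in naive lungs. Only injured replicate 3 stood apart, and the log2 fold change of 2.76 ± 1.08 (edgeR adjusted p = 0.283) was 1.02 without that lung. Inhbb, the beta B subunit, also had its highest value in injured replicate 3, at 28.7, 22.8 and 40.5 CPM in injured lungs against 24.8, 25.4 and 25.4 CPM in naive lungs.

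**Figure D4:**
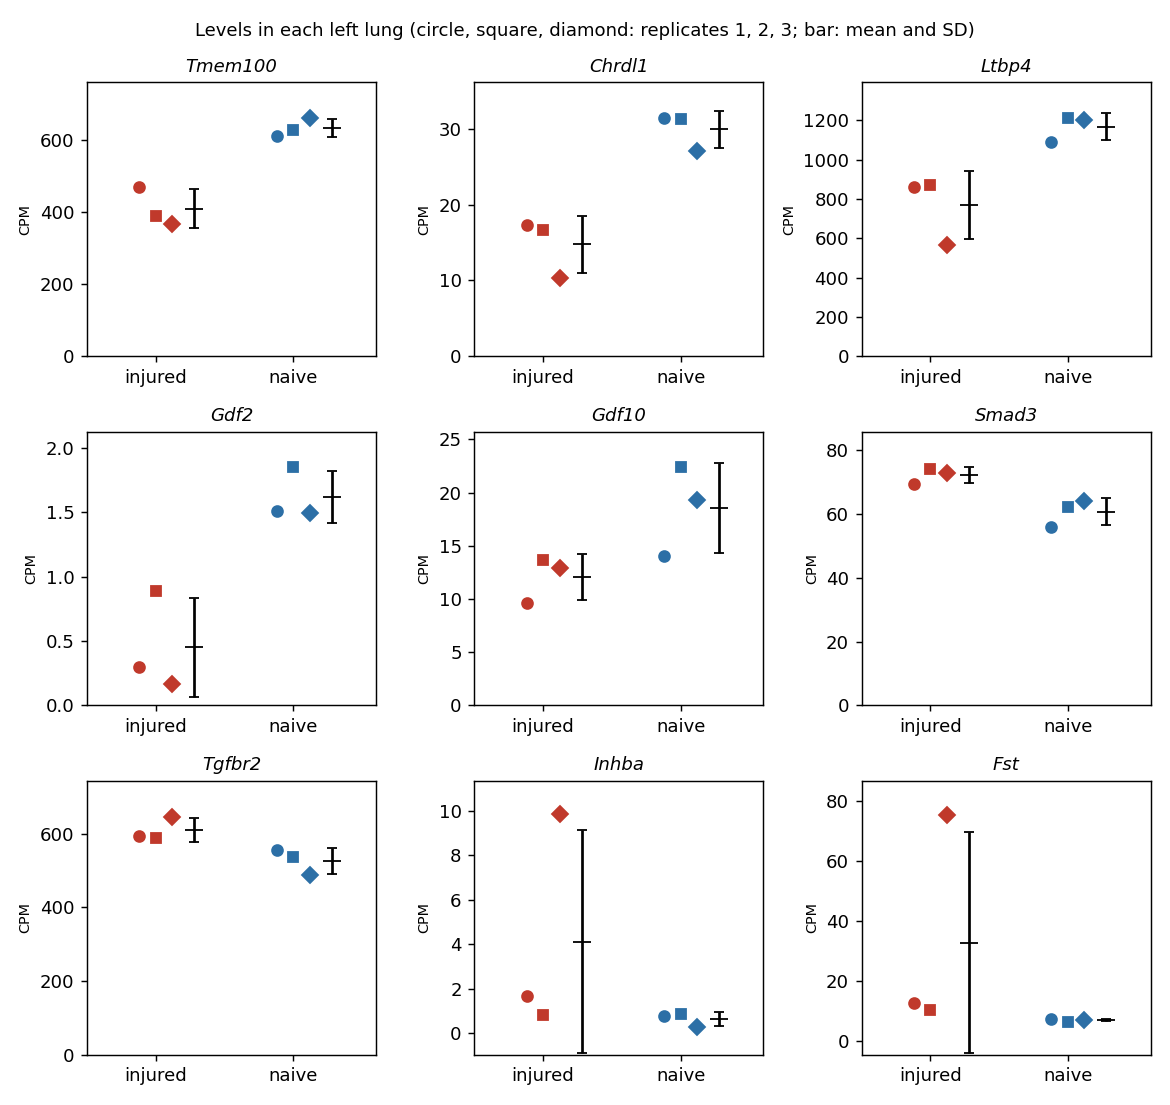
CPM of 9 pathway genes in each lung, injured in red left of naive in blue, with circles, squares and diamonds for replicates 1, 2 and 3 and black bars for the mean and SD of 3 lungs. Tmem100, Chrdl1, Ltbp4, Gdf2 and Gdf10 are lower in every injured lung, Smad3 and Tgfbr2 are slightly higher, and the high means of Inhba and Fst come from injured replicate 3.

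No BMP, GDF or TGF-beta ligand gene was called by edgeR or limma-voom, and 1, Gdf2, was called lower by DESeq2. At an unadjusted edgeR p under 0.05, 4 of the 12 tested BMP and GDF ligand genes were lower and 1 higher. These shares were 33.3% and 8.33%, against 7.66% and 9.06% of all genes. Of the 3 TGF-beta ligand genes, 1 was lower and 0 higher at that threshold. Bmp6, the most abundant BMP ligand, had 232, 231 and 148 CPM in injured lungs, against 200.3, 238 and 197 CPM in naive lungs, with the groups overlapping (log2 fold change -0.06 ± 0.17). Bmp4, a mesenchymal and endothelial ligand, had 49.1, 50.1 and 38.5 CPM in injured lungs, against 65.9, 65.3 and 49.4 CPM in naive lungs. Injured replicate 2 exceeded naive replicate 3, and the log2 fold change of -0.39 ± 0.14 was not called (edgeR adjusted p = 0.2005) with all lungs. Without both replicate 3 lungs, Bmp4 was called lower (log2 fold change -0.40, adjusted p = 0.0354), and so was Bmp5 (log2 fold change -0.54, adjusted p = 0.0121). Bmp5 was also called lower without naive replicate 3 alone (log2 fold change -0.50, adjusted p = 0.0306). With all lungs Bmp5 had a log2 fold change of -0.36 ± 0.13 (edgeR adjusted p = 0.198). Bmp2 and Bmp3 had log2 fold changes of -0.15 ± 0.14 and -0.0044 ± 0.13.

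Gdf2, which encodes the circulating ALK1 ligand BMP9, known as a liver product, had few reads. It had 6, 20 and 4 counts in injured lungs, against 45, 35 and 51 counts in naive lungs, which scales to 0.298, 0.886 and 0.169 CPM against 1.51, 1.85 and 1.49 CPM. The groups did not overlap and the log2 fold change was -1.82 ± 0.52, but the test was not passed (edgeR adjusted p = 0.106). It was called without injured replicate 2 (log2 fold change -2.78, adjusted p = 0.0281), and with all lungs by DESeq2 (adjusted p = 0.0338) and with no filter on low counts (adjusted p = 0.0465). Gdf10, or BMP3B, had 9.58, 13.7 and 12.9 CPM in injured lungs, against 14.0, 22.4 and 19.3 CPM in naive lungs (log2 fold change -0.62 ± 0.20, edgeR adjusted p = 0.144). Gdf15, a distant member of the family induced by cell stress, stayed scarce at 1.92 ± 0.777 CPM in injured and 1.87 ± 0.797 CPM in naive lungs (SD, n = 3 each). Gdf6, at 66 counts over the injured and 34 over the naive lungs, had a log2 fold change of 1.29 ± 0.53 (edgeR adjusted p = 0.256).

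The TGF-beta ligands themselves differed little. Tgfb1, the isoform of leukocytes and many other cells and the most abundant at 50.6 FPKM over the 6 lungs, had 121, 108.1 and 109.8 CPM in injured lungs, against 90.6, 108.6 and 123.04 CPM in naive lungs (log2 fold change 0.07 ± 0.12). Its 95% interval ran from -0.19 to 0.33. Tgfb2 and Tgfb3 had log2 fold changes of -0.37 ± 0.13 and -0.21 ± 0.10 with edgeR adjusted p of 0.198 and 0.306, and both overlapped between groups.

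Among the proteins that hold latent TGF-beta in the matrix, Ltbp4, which also organises elastic fibres, was by far the most abundant. Ltbp4 (chromosome 7, 27305136 to 27337692) had 861, 873 and 568 CPM in injured lungs, against 1089.8, 1212 and 1204 CPM in naive lungs. All injured lungs lay below all naive lungs, with injured replicate 3 the lowest. The log2 fold change of -0.61 ± 0.16 was close to that of Tmem100 but missed the threshold (edgeR adjusted p = 0.0821). It passed with no filter on low counts (adjusted p = 0.0369), by DESeq2 (adjusted p = 0.00393) and without both replicate 3 lungs (log2 fold change -0.41, adjusted p = 0.0381). Ltbp3 had 180.1, 153 and 156 CPM in injured lungs, against 183, 191 and 276 CPM in naive lungs, without overlap and without a call (log2 fold change -0.41 ± 0.16, edgeR adjusted p = 0.233). Ltbp1 and Ltbp2 overlapped between groups, with log2 fold changes of -0.05 ± 0.12 and -0.31 ± 0.26. Ltbp2 was called lower without naive replicate 1, its lowest naive lung (log2 fold change -0.58, adjusted p = 0.0369). At an unadjusted edgeR p under 0.05, 2 of these 4 genes were lower and 0 higher. The lower share was 50%, against 7.66% of all genes. Summed over the 4 genes, the level was 216 ± 35.2 FPKM in injured and 304 ± 28.4 FPKM in naive lungs (SD, n = 3 each).

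Of the 6 signal-carrying SMADs, 0 were called by edgeR, DESeq2 or limma-voom, which called 3.11%, 6.1% and 2.76% of all genes. With edgeR, 1 in each direction had an unadjusted p under 0.05 (16.7%, against 9.06% of all genes higher and 7.66% lower). Smad4, the common partner, had a log2 fold change of -0.02 ± 0.09, and Smad1, Smad2 and Smad5 lay between -0.16 and 0.04. Smad3, which transduces TGF-beta and activin signals, had 69.4, 74.2 and 72.9 CPM in injured lungs, against 56.0, 62.1 and 64.0 CPM in naive lungs. The groups did not overlap, and the log2 fold change of 0.25 ± 0.09 was not called (edgeR adjusted p = 0.182). Smad9, a BMP-responsive SMAD of low abundance, had 16.1, 17.2 and 9.45 CPM in injured lungs, against 25.2, 20.9 and 19.0 CPM in naive lungs (log2 fold change -0.61 ± 0.22, edgeR adjusted p = 0.208). The ubiquitin ligase genes Smurf1 and Smurf2 had log2 fold changes of -0.02 ± 0.08 and -0.08 ± 0.09. Bmp1, a procollagen protease and no growth factor, and Bmp2k, a kinase, share only the name and had log2 fold changes of -0.16 ± 0.19 and -0.07 ± 0.10.

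**Figure D5:**
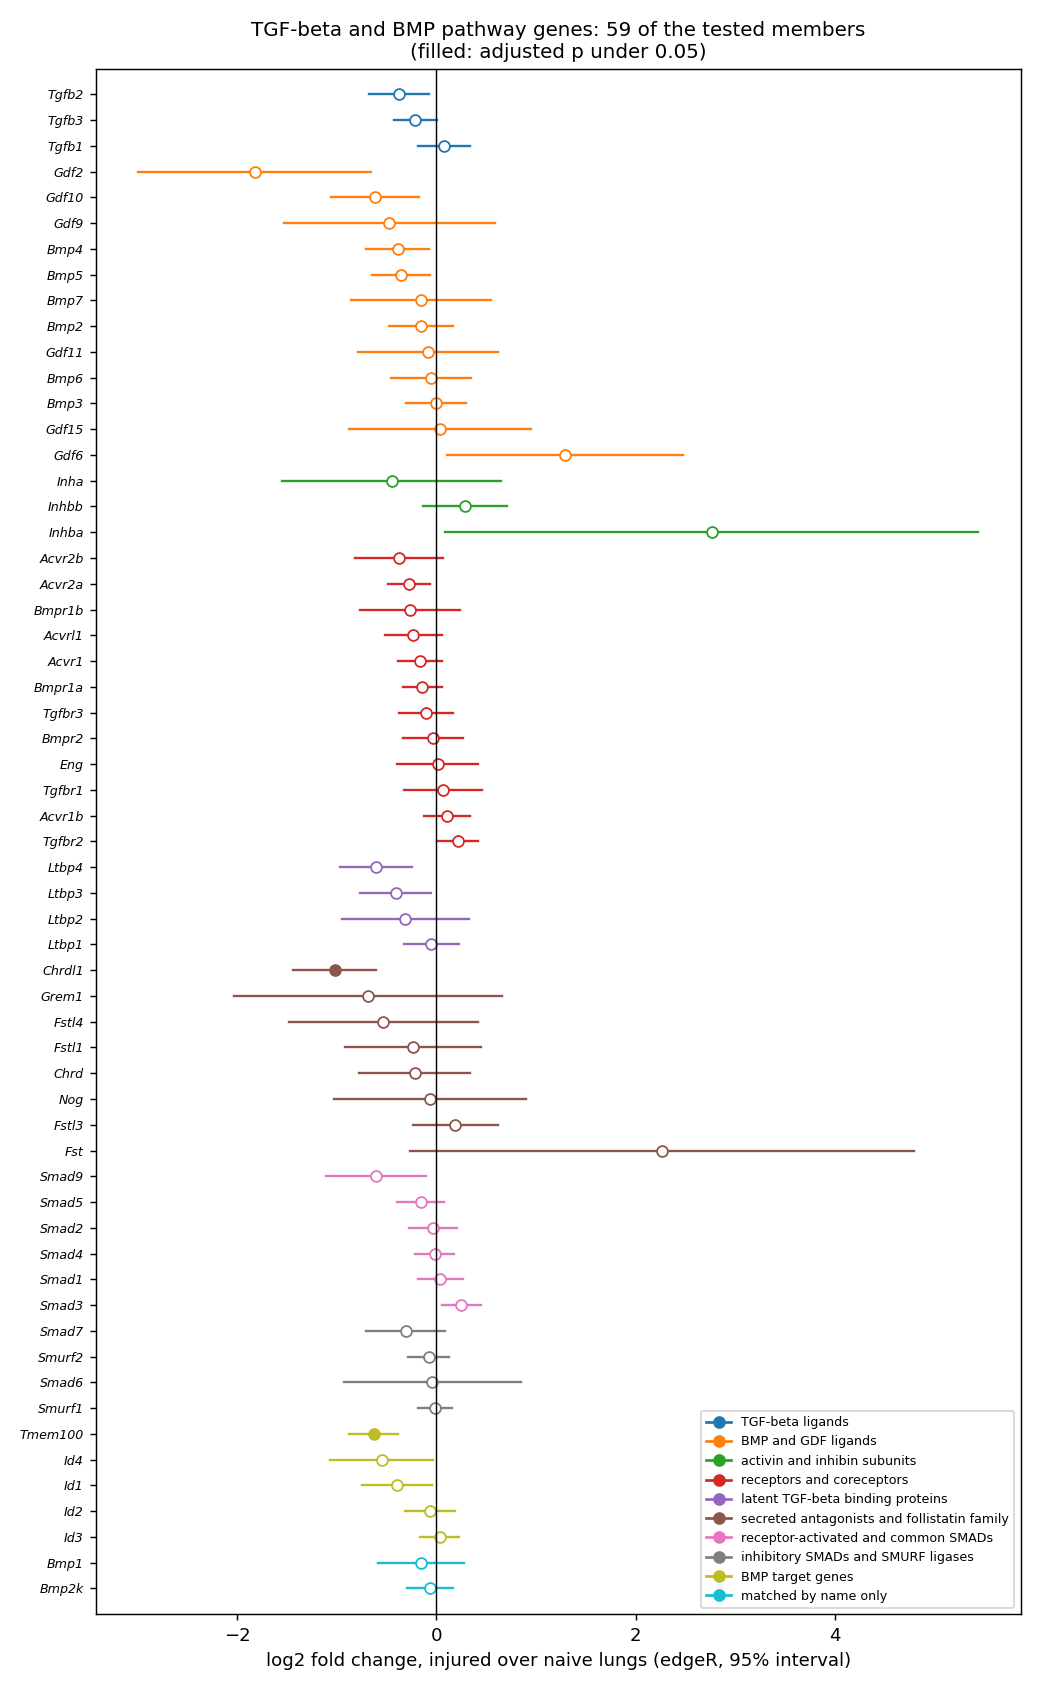
Log2 fold change of injured over naive lungs with its 95% interval for 59 of the 60 tested pathway genes, grouped by role (colours) and ordered within each role, filled where called. Only Tmem100 and Chrdl1 are filled, and the widest intervals belong to Inhba and Fst.

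Pathway genes outside the symbol rule were taken from lists of latent TGF-beta activation and storage, further ligands, antagonists and coreceptors, intracellular regulators, and genes induced by TGF-beta or by BMP and ALK1. Of 105 tested, 3 were called higher and 5 lower (7.62%, against 3.11% of all genes tested). In the activation and storage list, 2 of 26 were called higher and 2 lower, against 2.16% and 0.956% of all genes. The share in either direction was 15.4%, against 3.11% of all genes. Mmp9, a protease that can release latent TGF-beta, rose to 116 ± 43.8 CPM in injured lungs, against 10.7 ± 0.432 CPM in naive lungs (SD, n = 3 each; log2 fold change 3.45 ± 0.32, edgeR adjusted p = 0.00550), and it is also a neutrophil granule gene that belongs to the neutrophil list above. Emilin1, which restrains TGF-beta processing, rose (log2 fold change 0.75 ± 0.16, edgeR adjusted p = 0.0395). Fmod, a proteoglycan that binds TGF-beta, fell to 4.85 ± 1.05 CPM in injured lungs, against 17.1 ± 1.63 CPM in naive lungs (SD, n = 3 each; edgeR adjusted p = 0.000967). Pcolce2, an enhancer of procollagen processing by BMP1, fell (log2 fold change -0.79 ± 0.15, edgeR adjusted p = 0.0208). The call of Emilin1 was lost without injured replicate 1 or 3 or naive replicate 1 or 2 (adjusted p = 0.127, 0.0578, 0.112 and 0.171), and that of Pcolce2 without injured replicate 1 or naive replicate 2 or 3 (adjusted p = 0.0644, 0.0919 and 0.0604).

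Of 25 tested genes induced by TGF-beta, 1 was called higher and 2 lower (12%, against 3.11% of all genes), with a median log2 fold change of 0.04. At an unadjusted p under 0.05, 12% were higher and 20% lower, against 9.06% and 7.66% of all genes. Tgfbi, a matrix protein named for its induction by TGF-beta and also made by macrophages, rose to 184 ± 29.7 CPM in injured lungs, against 75.2 ± 5.36 CPM in naive lungs (SD, n = 3 each; log2 fold change 1.29 ± 0.13, edgeR adjusted p = 0.000892). The summed level of 11 monocyte and macrophage markers ran from 1511 to 1680 CPM in injured lungs, against 989 to 1189 CPM in naive lungs. Fn1, the fibronectin gene, made up most of this sum in every lung and was not called (edgeR adjusted p = 0.0987). Its level was 1008, 1007 and 1103 CPM in injured lungs, against 714, 655 and 904 CPM in naive lungs. Of the 11 markers, 8 were called higher, against 2.16% of all genes. The part of macrophage content in the rise of Tgfbi was not tested. Ctgf (log2 fold change -1.36 ± 0.18, edgeR adjusted p = 0.00673) and Postn, or periostin (log2 fold change -0.96 ± 0.13, edgeR adjusted p = 0.00518), both classical TGF-beta targets, fell. Postn also belongs to the smooth muscle and pericyte list above.

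Of 11 tested BMP and ALK1 induced genes outside the rule, 0 were called, with 3 higher and 1 lower at an unadjusted p under 0.05 (27.3% and 9.09%, against 9.06% and 7.66% of all genes). Of these, limma-voom called 0 and DESeq2 called 1 higher. Their median log2 fold change was 0.19, above 0 where that of the 5 target genes described first was -0.39. The targets Smad6 and Smad7, with log2 fold changes of -0.04 and -0.31, are in neither list. A difference between the lists was not tested. Gja5, the arterial connexin 40 gene, had 63.9 ± 18.8 CPM in injured and 40.3 ± 9.21 CPM in naive lungs (SD, n = 3 each), and Hey1 had 113 ± 10.4 CPM in injured and 102 ± 13.8 CPM in naive lungs. Of 27 intracellular regulators, 1 was called (3.7%, against 3.11% of all genes). It was Ldlrad4, an inhibitor of TGF-beta signalling (log2 fold change -0.49 ± 0.11, edgeR adjusted p = 0.0414). This call was lost when any 1 library was left out, with adjusted p up to 0.163, and by limma-voom (adjusted p = 0.0507). None of 16 other ligands, antagonists and coreceptors was called by edgeR, DESeq2 or limma-voom. With edgeR, 0 had an unadjusted p under 0.05, against 16.7% of all genes in either direction.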

How the data were processed

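The authors deposited 1 table of 23194 genes for 3 injured and 3 naive lungs. Raw counts, normalized counts, FPKM values and gene lengths stand in it, per the file headers, next to log2 fold changes, p-values and adjusted p-values from the authors' own comparison. Tools named in the submitters' processing notes are HTSeq, STAR, STAR-Fusion, edgeR and DESeq2, the build is mm10, and the strand setting of the counting is not given in the sources used here. The authors' normalized counts, a signal, equalled the deposited counts divided by 1 factor per library, and the deposited FPKM were recovered from counts, lengths and totals, both within a relative tolerance of 1e-06. Of the 69 genes, 22 share exon bases with another gene in GENCODE M21, so their counts are less certain; among those named, Bmp6 shares 224 bases with Txndc5 and Acvr2a 446 with Orc4, while Tmem100 and Chrdl1 share none.

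Counts as deposited were filtered with filterByExpr, scaled by TMM and tested in edgeR 4.0.16 under R 4.3.3 by a quasi-likelihood fit (robust) on group alone, with limma 3.58.1 and DESeq2 1.42.0 as alternatives and Benjamini-Hochberg adjustment over all 15486 genes tested and calls at an adjusted p under 0.05. CPM are counts divided by the TMM-scaled library size. Members and lists were chosen with earlier results of these data known. Genes are named if called, if among the 2 most abundant per role, or if in a fixed core set, and up to 4 called genes per outside list; others are named where groups did not overlap or a setting changed a call. Some genes that this rule takes are counted but not reported here by name. Replicates are separate lungs. The fits were tested on simulated data. Alternatives were other scalings, filters and tests, the replicate number as a block, each library left out, and, added after seeing the data, both replicate 3 lungs left out.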

Additional observations from a re-analysis of the deposited data

How the results depend on the processing

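Over 13 alternatives and 1 added after seeing the data (both replicate 3 lungs left out), the 69 genes gave 0 higher calls each time. Lower calls among them numbered 2 with all lungs, 4 with no filter on low counts, 4 by DESeq2, 5 with both replicate 3 lungs left out, and from 0 to 3 with 1 library left out. Outside pathway genes called higher numbered 3, with 5 by DESeq2, 6 with the replicate block and 8 without both replicate 3 lungs. Of all genes, 2.16%, 3.61%, 2.67% and 3.08% were called higher in these settings, in the same order. Outside pathway genes called lower numbered 5, and from 3 to 6 with 1 library left out. Of all genes, 0.956% were called lower with all lungs, and from 0.304% to 0.929% with 1 library left out. Over all genes, 334 were higher (578 by DESeq2, 145 to 333 with 1 library left out) and 148 lower (269 with no filter, 398 by DESeq2, 250 without both replicate 3 lungs, 48 to 146 with 1 library left out). With the replicate number as a block, 3 of the 69 genes were called lower (Gdf10 joined). Over all genes, 208 (1.34%) were then called lower and 621 (4.01%) in either direction. Same-numbered lungs had deviations correlated across genes at 0.08, -0.09 and 0.15. The replicate 3 lungs were each other's best match, while replicates 1 and 2 had no such mutual match, so the numbers were not read as pairs. A factor shared by the replicate 3 lungs was not tested. Uncalled log2 fold changes near 0 turned sign: Eng was -0.021 by limma-voom and -0.023 under the block, and without both replicate 3 lungs Bmp6 was 0.080, Smad4 0.033, Smad6 0.36 and Smurf2 0.0072. With 1 library left out they ran from -0.043 to 0.18 for Tgfb1, -0.16 to 0.13 for Bmp6, -0.23 to 0.18 for Eng, -0.074 to 0.028 for Smad4, -0.45 to 0.22 for Smad6, -0.026 to 0.061 for Id3, -0.33 to 0.024 for Bmp1, -0.016 to 0.24 for Tgfbr1, -0.16 to 0.074 for Bmpr2, -0.15 to 0.045 for Id2 and -0.32 to 0.43 for Gdf15. The cause of these moves was not tested. Tmem100 kept a log2 fold change between -0.74 and -0.53 and Chrdl1 one between -1.15 and -0.82 over all 14 alternatives, each called in 12. Gdf2, Gdf6 and Inhba rest on few counts, which limits their precision.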

Other observations

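The authors' deposited table gives an adjusted p-value for 60 of the 69 genes, and the 4 under 0.05 there were Tmem100 (log2 fold change -0.59), Chrdl1 (-0.86), Ltbp4 (-0.54) and Gdf2 (-0.66). The value for Gdf2 in the authors' deposited table is smaller in size than the -1.82 fitted here by edgeR. This was not particular to Gdf2. The deposited values were also smaller for Fst (0.40 against 2.27), Inhba (0.32 against 2.76) and Gdf6 (0.41 against 1.29). For the abundant Tmem100 the 2 values were close (-0.59 against -0.63). The cause was not tested.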
